A study of Rattus with 6 samples.

Results

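Ptgs1, which encodes cyclooxygenase 1, and Ptgds and Akr1b1, whose enzymes act on its product, were followed in the rat pituitary adenoma cell line RC-4B/C. They were taken by gene name from a deposited table of exon values, where they make up 3 of 12801 genes and 23 of 118147 exons. Polyadenylated RNA was sequenced from 3 libraries of cells given aspirin (acetylsalicylic acid, ASA) and from 3 libraries of control cells given the solvent dimethyl sulfoxide (DMSO). All 6 libraries come from this line, which derives from a pituitary adenoma of a rat and which the labels call a pituitary cell. The sources used here give neither dose nor duration, and GH3 cells, which the design text also names, were not analysed here. Nothing states that replicates are independent cultures, and p-values therefore reflect spread among libraries alone. The comparison asks how the treatment with a cyclooxygenase inhibitor goes along with the transcripts of its target and of the enzymes beyond it.

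Prostaglandins are made from arachidonic acid, which phospholipases release from membranes. Cyclooxygenases turn it into the unstable prostaglandin H2, and terminal synthases turn that into prostaglandin D2, E2, F2 alpha, prostacyclin or thromboxane. Aspirin acetylates a serine in the cyclooxygenase channel and so blocks the enzyme, an event on the protein that RNA levels do not show. Ptgs1 is the cyclooxygenase gene usually described as constitutive and Ptgs2 the inducible one. Ptgds encodes the lipocalin-type prostaglandin D synthase, a secreted protein of the brain and its coverings that also binds retinoids. Akr1b1 encodes aldose reductase, the first enzyme of the polyol pathway, which in its human form also makes prostaglandin F2 alpha from prostaglandin H2. In the pituitary, prostaglandins are known as local modulators of hormone release.

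The libraries held 66492452 to 94486065 reads in the listed exons. Levels are given as RPKM, reads scaled to the length of the listed exons and to the size of the library, recovered from the deposited log2 values. ASA replicate 2 stood apart. Its exons deviated from the rest of their gene by a median of 0.354 on the log2 scale, against 0.0607 and 0.0781 in the other ASA libraries and 0.0399 to 0.0444 in the DMSO libraries. It also had 497 exons with no read, against 4 to 13 elsewhere, and the fewest reads. The results on Ptgs1, Ptgds and Akr1b1 are therefore given with and without it. So are those on other named list genes where its omission changed a call, turned the direction or moved a fold by over 1.5 times. Some unnamed genes of the pathway and marker lists changed in these ways too. Of 8 markers of the prolactin and growth hormone lineage 5 were in the table, summing to 14954 to 63100 RPKM in ASA libraries and 23041 to 63178 RPKM in DMSO libraries. Nearly all of this sum was Prl, at 14037 to 62101 RPKM in ASA libraries and 22006 to 62170 RPKM in DMSO libraries. Its counts are uncertain, as 46.7% of its exon values did not come out as whole reads. The pituitary transcription factor gene Pou1f1 had 603 to 804 RPKM in ASA libraries and 584 to 714 RPKM in DMSO libraries. Neurod4 and Esr1 of these 5 fell (limma adjusted p = 0.0155 and 0.0189), as did 2 of 8 endocrine secretory markers, all of which were in the table. Over all genes tested 4.99% were called lower. Drd2, also of the 5 lineage markers, was 2.22-fold lower without passing (limma adjusted p = 0.0587). It passed without ASA replicate 2 (limma adjusted p = 0.0109).

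Ptgs1 and Ptgds rose with ASA, and Akr1b1 was higher in every ASA library than in any DMSO library without passing the test. Ptgs1 had 87.8, 74.5 and 55.5 RPKM in ASA replicates 1, 2 and 3, and 40.8, 32.6 and 29 RPKM in DMSO replicates 1, 2 and 3. The groups did not overlap, and the lowest ASA library stood 1.36 times above the highest DMSO library. The means were 72.6 ± 16.2 RPKM with ASA and 34.2 ± 6.01 RPKM with DMSO (SD, n = 3 each). The difference was 2.11-fold, a log2 fold change of 1.07 ± 0.23 (SE) with a 95% interval from 1.44-fold to 3.07-fold (limma on log2 of RPKM + 0.1, Benjamini-Hochberg adjusted p = 0.0335). It was 2.06-fold without ASA replicate 2 (limma adjusted p = 0.0299). The call was lost when ASA replicate 3 (limma adjusted p = 0.0904) or any DMSO replicate (0.0836, 0.0863 and 0.165 for DMSO replicates 1, 2 and 3) was omitted, with log2 fold changes of 0.92 to 1.26 across the 6 single omissions. These omissions cut calls over the whole table. Without ASA replicate 3 or DMSO replicate 3, 0 genes were called, against 1400 with all 6 libraries. Without DMSO replicate 1 the number was 91, and without DMSO replicate 2 it was 632.

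Ptgds had the largest fold change of the 3 genes. It had 25.2, 29.2 and 20.7 RPKM in ASA replicates 1, 2 and 3, and 9.89, 9.31 and 8.76 RPKM in DMSO replicates 1, 2 and 3. The groups lay far apart, with the lowest ASA library 2.09 times above the highest DMSO library. The means were 25.0 ± 4.28 RPKM with ASA and 9.32 ± 0.566 RPKM with DMSO (SD, n = 3 each), 2.64-fold higher, with a log2 fold change of 1.40 ± 0.23 (SE) and a 95% interval from 1.84-fold to 3.80-fold (limma adjusted p = 0.0178). Omitting ASA replicate 2 left it 2.44-fold higher (limma adjusted p = 0.00996). The call was lost when ASA replicate 3, DMSO replicate 1 or DMSO replicate 3 was omitted (limma adjusted p = 0.0803, 0.0713 and 0.113), with log2 fold changes of 1.28 to 1.53 across the 6 single omissions.

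Akr1b1 had the smallest fold change of the 3. It had 37.3, 26.0 and 32.2 RPKM in ASA replicates 1, 2 and 3, and 22.4, 19.2 and 21.4 RPKM in DMSO replicates 1, 2 and 3. The groups did not overlap, but ASA replicate 2 stood only 1.16 times above the highest DMSO library. The means were 31.8 ± 5.68 RPKM with ASA and 21 ± 1.68 RPKM with DMSO (SD, n = 3 each). The log2 fold change was 0.59 ± 0.21 (SE), with a 95% interval, not adjusted for the number of genes, from 1.07-fold to 2.11-fold. After adjustment over all genes tested the difference missed the threshold (limma adjusted p = 0.112). With ASA replicate 2 omitted Akr1b1 was 1.65-fold higher and passed (limma adjusted p = 0.0252), where 12.9% of all genes tested were called higher. It did not pass when any other single library was omitted (limma adjusted p = 0.173 to 0.326).

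Across the whole table, 6.21% of the 12502 genes tested were called higher with ASA and 4.99% lower, and 2 of these 3 genes were called higher. Groups that did not overlap with ASA on the upper side were found for 19.9% of genes tested, and for all 3 of these, and on the lower side for 18.8%. A higher log2 fold change than that of Ptgs1 was found for 6.63% of genes tested, than that of Ptgds for 3.28% and than that of Akr1b1 for 18.1%. In an exact two-sided permutation test of each gene alone, p was 0.1 for all 3 genes, the smallest that 3 libraries against 3 can give. In these bulk libraries fewer cells of a type and less RNA per cell cannot be told apart.

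**Figure D1:**
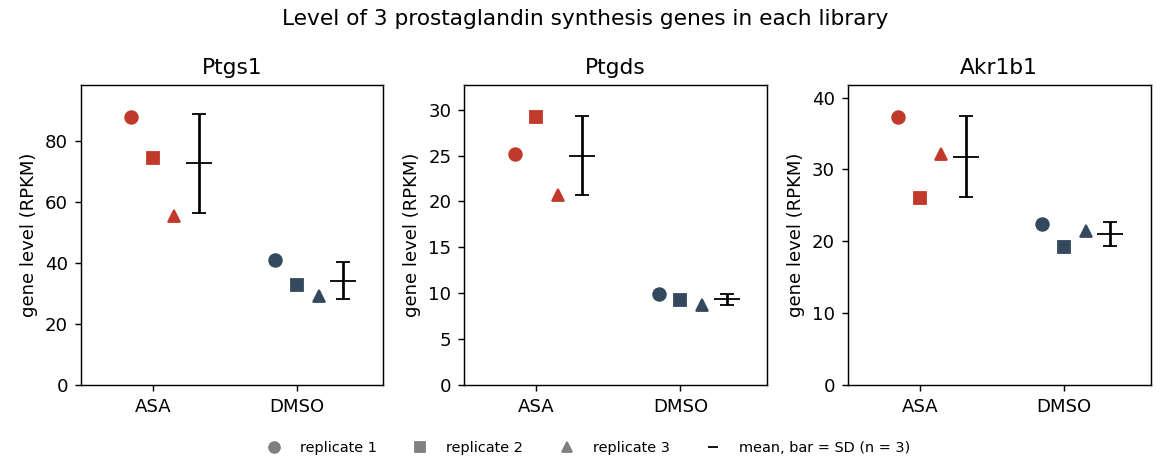
Gene level in RPKM (vertical axis, from 0) of Ptgs1, Ptgds and Akr1b1 in each library, with ASA left of DMSO; marker shapes stand for the replicate numbers, and the black mark and bar for the mean and SD (n = 3). For each gene every ASA library lies above every DMSO library, with the narrowest gap for Akr1b1 (26.0 RPKM in ASA replicate 2, 22.4 RPKM in DMSO replicate 1).

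The order of the levels was the same in most libraries. Ptgs1 was the most abundant of the 3 genes per kilobase in all 6 libraries. It stood at the percentile 75.0 to 84.3 of all genes of the table in ASA libraries and 58.6 to 66.9 in DMSO libraries. Akr1b1 came next, at the percentile 59.7 to 64.4 in ASA libraries and 48.7 to 51.1 in DMSO libraries. Ptgds was lowest, at the percentile 47.9 to 62.8 in ASA libraries and 30.4 to 32 in DMSO libraries. ASA replicate 2 was the exception, with Ptgds at 29.2 RPKM above Akr1b1 at 26.0 RPKM, so the order of these neighbours did not hold in every ASA library. The ratio of Ptgs1 to Ptgds was 3.48, 2.55 and 2.68 in ASA replicates 1, 2 and 3 and 4.12, 3.51 and 3.32 in DMSO replicates 1, 2 and 3, and the groups overlapped. The ratio of Akr1b1 to Ptgds did not overlap, at 1.48, 0.888 and 1.56 in ASA replicates 1, 2 and 3 and 2.27, 2.06 and 2.44 in DMSO replicates 1, 2 and 3.

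The 3 genes lie apart in the genome, so none of their exons share reads through overlap with each other. In Rnor_6.0 coordinates that cover the listed exons, Ptgs1 (ENSRNOG00000007415) spans 15560887 to 15581417 of chromosome 3 on the plus strand. Ptgds (ENSRNOG00000015550) spans 2687164 to 2689025 of chromosome 3 and Akr1b1 (ENSRNOG00000009513) spans 61707219 to 61720921 of chromosome 4, both on the minus strand. No other gene of the table overlapped any of the 3, and all of their exon values were whole reads within 0.02 read. The nearest gene of the table to Ptgs1 was Mrrf, a mitochondrial ribosome recycling factor gene 43008 bases before it, with 12.5 RPKM in ASA and 6.68 RPKM in DMSO libraries on average (log2 fold change 0.85, limma adjusted p = 0.0969). The nearest to Ptgds was Paxx, a DNA repair gene 6740 bases away, with 79.6 RPKM in ASA and 45.8 RPKM in DMSO libraries (log2 fold change 0.76, limma adjusted p = 0.0818). The lipocalin gene Lcn12, 28580 bases on the other side of Ptgds, had 1.81 RPKM in ASA and 2.32 RPKM in DMSO libraries (log2 fold change -0.69, limma adjusted p = 0.536), and its log2 fold change turned to 0.16 without ASA replicate 2 (limma adjusted p = 0.733).

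Ptgs1 was listed with 10 of 11 numbered exons, and its first was not in the table. Read counts per library ranged from 8718 to 14538 with ASA and from 4806 to 6933 with DMSO. All 10 exons had a positive log2 fold change, from 0.48 to 1.46, and 9 of them had groups that did not overlap, against 17.3% of all exons on the upper side. None of the 10 was called alone (limma on the deposited log2 RPKM, adjusted p = 0.0627 to 0.551, with 1.49% of all exons called higher and 0.791% lower). Without ASA replicate 2 all 10 were called higher, at log2 fold changes of 0.98 to 1.18 (limma adjusted p = 0.0238 to 0.0406), where 10.2% of all exons were called higher.

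The ASA libraries differed in the shape of Ptgs1 along the transcript. Listed exon 1 (15560887 to 15560982) had 115, 164 and 69.8 RPKM in ASA replicates 1, 2 and 3, and 53.6, 46.1 and 33.3 RPKM in DMSO replicates 1, 2 and 3. Listed exon 9 (15579095 to 15579242) had 104, 26.1 and 64.9 RPKM in ASA replicates 1, 2 and 3, and 47.3, 36.8 and 37.0 RPKM in DMSO replicates 1, 2 and 3. In ASA replicate 2 the 5′ exon was thus 6.28 times the 3′ exon, and exon 9 was below all DMSO libraries, while the same ratio was 1.11 in ASA replicate 1, 1.08 in ASA replicate 3 and 0.900 to 1.25 in the DMSO libraries. The slope of the log2 difference from the DMSO mean over the exons, from the first to the last, was -2.14 in ASA replicate 2, -0.11 in ASA replicate 1, -0.01 in ASA replicate 3 and -0.2 to 0.27 in the DMSO libraries. A steeper fall was found in ASA replicate 2 for 3.53% of the 8209 genes with at least 5 listed exons. In that library the slopes of all these genes ran from -1.9 at the percentile 5 to 2.17 at the percentile 95, against -0.54 to 0.55 in ASA replicate 1, so steep slopes of both signs were common in it.

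Ptgds was listed with 5 of 6 exons and 993 to 1276 reads with ASA against 421 to 514 reads with DMSO. All 5 exons were higher in every ASA library than in any DMSO library, with log2 fold changes of 1.13 to 1.82. Of all exons 17.3% had such groups. Listed exons 1 and 2, at the 5′ end, were called higher (3.53-fold and 2.87-fold, limma adjusted p = 0.0487 and 0.0478), and the other 3 had an adjusted p of up to 0.0899. Of the 6 single omissions, the calls of exons 1 and 2 held with that of ASA replicate 2 only (limma adjusted p = 0.0127 and 0.0143), and were lost with the others (0.0605 to 0.257 and 0.0636 to 0.258). They also missed the threshold with median centring (0.0542 and 0.0521) and without the variance trend (0.0583 and 0.0562). Once ASA replicate 2 was omitted, all 5 exons were called, at log2 fold changes of 1.09 to 1.51, against 10.2% of all exons called higher. The 5′ exon 1 (2688912 to 2689025) had 24.3, 41.3 and 19.1 RPKM in ASA replicates 1, 2 and 3, and 8.36, 8.22 and 6.30 RPKM in DMSO replicates 1, 2 and 3. The last listed exon, exon 5 (2687164 to 2687265) had 20.8, 11.6 and 16.2 RPKM in ASA replicates 1, 2 and 3, and 4.98, 7.99 and 7.25 RPKM in DMSO replicates 1, 2 and 3. ASA replicate 2 was the highest ASA library at the 5′ end and the lowest at the 3′ end, with a slope of -1.65 against -0.14 in ASA replicate 1 and -0.05 in ASA replicate 3, and -0.44 to 0.4 in the DMSO libraries.

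No exon of Ptgs1 or Ptgds passed the test of a difference from the rest of its gene. In the test of each exon against the other exons (limma's diffSplice, adjusted over all exons of genes with more than 1), the smallest adjusted p was 1.0 for both genes and no exon had an unadjusted p under 0.05. By the same test 0.0447% of exons were called over the whole table.

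**Figure D2:**
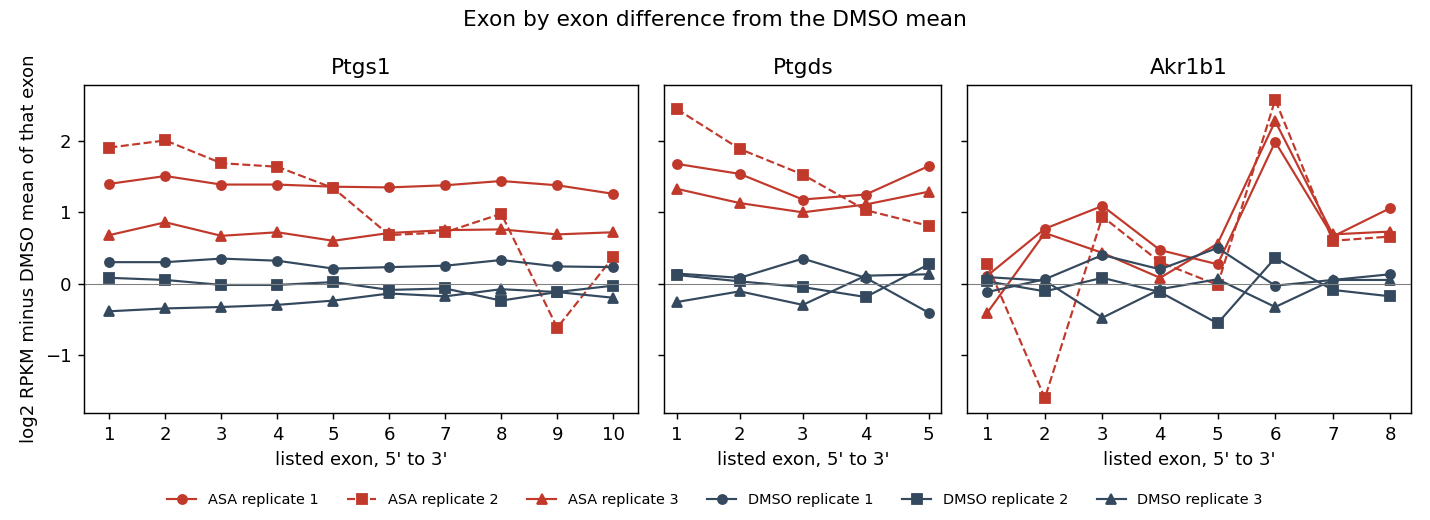
Difference of each exon's log2 RPKM from its mean in the DMSO libraries (vertical axis) along the listed exons from 5′ to 3′ (horizontal axis), for Ptgs1, Ptgds and Akr1b1, with 1 line per library and ASA replicate 2 dashed. ASA replicates 1 and 3 run level across Ptgs1 while ASA replicate 2 falls from 1.91 at exon 1 to -0.62 at exon 9, and exon 6 of Akr1b1 stands out in all 3 ASA libraries at 1.99 to 2.58.

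Akr1b1 had exon levels that differed far more from each other than those of Ptgs1 and Ptgds. Its values are uncertain, since RefSeq's gene table (assembly GRCr8) names 5 Akr1b1 pseudogenes on 4 chromosomes and the handling of reads that fit several places is not given in the sources used here. In the DMSO libraries its 8 listed exons of 10 ranged from 1.84 to 176 RPKM, a ratio of 95.6 between the highest and the lowest. The same ratio was 1.85 for Ptgs1, 2.05 for Ptgds and 2.66 in the median of 8209 genes, and 99.0% of those genes had a smaller ratio than Akr1b1. The highest was the listed exon 8 of 40 bases at the 3′ end (61707219 to 61707258), with 363, 277 and 291 RPKM in ASA replicates 1, 2 and 3, and 191, 154 and 181 RPKM in DMSO replicates 1, 2 and 3. It alone held 45.8% to 54.2% of the gene's reads in ASA libraries and 40.8% to 43.3% in DMSO libraries. With that exon left out, Akr1b1 had 19.9, 12.5 and 18.4 RPKM in ASA replicates 1, 2 and 3, and 13.4, 12 and 12.8 RPKM in DMSO replicates 1, 2 and 3. The groups then overlapped, since ASA replicate 2 was below DMSO replicates 1 and 3, and the log2 fold change was 0.38 (limma adjusted p = 0.359). Taking the median of the exons for the gene gave -0.14 (limma adjusted p = 0.77), so the direction of Akr1b1 depended on which exons stood for the gene.

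A single Akr1b1 exon was called apart from the rest of its gene. Listed exon 6, of 84 bases (61712265 to 61712348), had 7.24, 10.9 and 8.86 RPKM in ASA replicates 1, 2 and 3, and 1.76, 2.32 and 1.42 RPKM in DMSO replicates 1, 2 and 3. All ASA libraries were high and the groups lay far apart, on 56, 61 and 65 reads with ASA against 14, 16 and 11 reads with DMSO. It was 4.86-fold higher (log2 fold change 2.28 ± 0.38 SE, limma adjusted p = 0.039), and it differed from the other exons of the gene by 1.88 on the log2 scale (diffSplice adjusted p = 0.045). These were, without ASA replicate 2, 2.13 (limma adjusted p = 0.012) and 1.62 (diffSplice adjusted p = 0.00255). Omitting ASA replicate 1 kept both calls (limma and diffSplice adjusted p = 0.0482 and 0.0248). Both were lost on omitting ASA replicate 3 (0.173 and 0.132) or any DMSO replicate, the first (0.166 and 1.0), the second (0.0596 and 0.216) or the third (0.24 and 1.0). The fold lay between 4.33 and 5.50 over these fits.

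None of the other Akr1b1 exons was called with all 6 libraries. Exons 3, 7 and 8 had groups that did not overlap, with log2 fold changes of 0.82, 0.65 and 0.82 and none called (limma adjusted p = 0.272, 0.124 and 0.0738). The 5′ exon 1 (61720856 to 61720921) had 24.8, 27.8 and 17.3 RPKM in ASA replicates 1, 2 and 3, and 21.2, 23.6 and 24.5 RPKM in DMSO replicates 1, 2 and 3, with overlapping groups (log2 fold change -0.01, limma adjusted p = 0.984). In exon 2 ASA replicate 2 stood far below the rest, with 40.9, 7.88 and 39.2 RPKM in ASA replicates 1, 2 and 3, and 25.1, 22.3 and 24.7 RPKM in DMSO replicates 1, 2 and 3. Its log2 fold change was -0.04 with that library (limma adjusted p = 0.972) and 0.74 without it (limma adjusted p = 0.0298). Exons 4 and 5 overlapped between the groups, with log2 fold changes of 0.28 and 0.27. Over all 8 listed exons, the slope of the log2 difference from the DMSO mean rose towards the 3′ end in every ASA library. It was 0.72, 1.53 and 1.16 in ASA replicates 1, 2 and 3, and -0.09 to 0.06 in the DMSO libraries. Lower slopes were found for 97.3%, 87.4% and 99.0% of 8209 genes in ASA replicates 1, 2 and 3. Without ASA replicate 2, 4 of the 8 exons were called higher and none lower, where 10.2% of all exons were called higher.

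**Figure D3:**
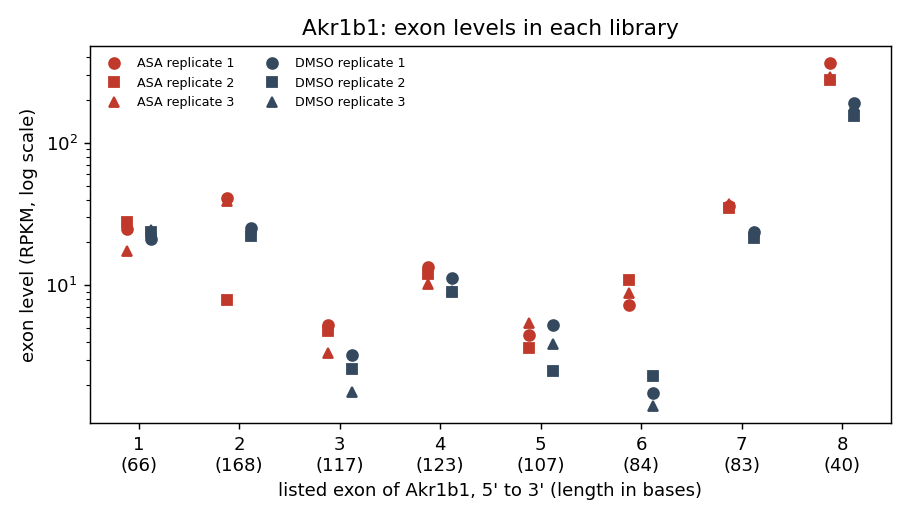
Level of each listed exon of Akr1b1 in RPKM (vertical axis, log scale) from 5′ to 3′ (horizontal axis, with exon length in bases), in ASA libraries (left of each position) and DMSO libraries (right), 1 point per library. Exon 8 is the highest at 154 to 363 RPKM and exon 6 shows the widest gap between the groups, at 7.24 to 10.9 RPKM with ASA and 1.42 to 2.32 RPKM with DMSO.

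A paralogue near Akr1b1 rose. Akr1b8, an aldo-keto reductase gene 51185 bases away, had 535, 138 and 356 RPKM in ASA replicates 1, 2 and 3, and 59.5, 59.8 and 43.9 RPKM in DMSO replicates 1, 2 and 3. The groups did not overlap, and ASA replicate 2 was the lowest ASA library. It was 5.51-fold higher (log2 fold change 2.46 ± 0.46 SE, limma adjusted p = 0.0231), and the log2 fold change was 3.02 without ASA replicate 2 (limma adjusted p = 0.006). As reads may be divided among related copies, the part of Akr1b8 reads in the values of Akr1b1 was not tested. Of the 12 tested genes of the polyol pathway and the aldo-keto reductases, Akr1b8 and Akr7a3, an aldehyde reductase gene, rose and none fell. The shares called higher and lower over all genes tested were 6.21% and 4.99%. Akr7a3 averaged 13.1 RPKM with ASA and 5.53 RPKM with DMSO, 2.28-fold higher (limma adjusted p = 0.0415). Sord, the sorbitol dehydrogenase that follows aldose reductase in the polyol pathway, averaged 16.9 RPKM with ASA and 11.5 RPKM with DMSO without passing (limma adjusted p = 0.268). Akr1a1, the aldehyde reductase, was far more abundant than these at 957 RPKM with ASA and 1156 RPKM with DMSO (limma adjusted p = 0.358).

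Akr1b1 is also known as a target of the osmotic stress factor encoded by Nfat5. Of 6 tested genes of that kind 1 rose and 1 fell, where 11.2% of all genes tested were called. Slc6a9, a glycine transporter gene, averaged 95.9 RPKM with ASA and 51.6 RPKM with DMSO (1.88-fold higher, limma adjusted p = 0.049), and 17.9% of its exon values did not come out as whole reads. Slc6a6, the taurine transporter gene, averaged 46.8 RPKM with ASA and 86.5 RPKM with DMSO (1.87-fold lower, limma adjusted p = 0.032). Nfat5 itself had 27.8 RPKM with ASA and 25.4 RPKM with DMSO (limma adjusted p = 0.772), and the amino acid transporter gene Slc38a2 had 295 RPKM with ASA and 429 RPKM with DMSO (limma adjusted p = 0.184). For Slc38a2, 15.6% of the exon values did not come out as whole reads. Of the lipocalin family that Ptgds belongs to, 3 genes were tested and only Ptgds passed. Apom, a lipocalin of lipoprotein particles, averaged 1.32 RPKM with ASA and 0.728 RPKM with DMSO (limma adjusted p = 0.213).

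In the pathway from arachidonate to prostanoids, 6 lists from cyclooxygenases to receptors held 85 symbols, of which 44 were in the table and 43 were tested. Among these 7 rose and 4 fell, 25.6%, against 11.2% of all genes tested, and the median log2 fold change was -0.18 against -0.06 over all genes tested. Leaving out Ptgs1, Ptgds and Akr1b1, 5 rose and 4 fell of 40, 22.5%. The lists were chosen with earlier results of these data known, so these shares only describe them, and no set test was run. With the lists of other arachidonate routes, aldo-keto reductases, osmolyte genes and lipocalins added, 12 rose and 5 fell of 73. Of these 17 calls, omitting ASA replicate 2 kept all 17, and omitting ASA replicate 1 kept 14. A further 5 genes passed once ASA replicate 2 was omitted, namely Acsl1, Akr1b1, Cyp2j10, Ggt1 and Slco3a1. Over the whole table the same omission took the calls from 1400 to 2617 of 12502 genes tested. Omission of DMSO replicate 2 kept 5 and that of DMSO replicate 1 kept 1. No call was left when ASA replicate 3 or DMSO replicate 3 was omitted, where 23 and 20 of the genes had an unadjusted limma p under 0.05. Neither omission left a call in the whole table. No fold of a called gene moved by over 1.5 times when any single library was left out. The other cyclooxygenase gene, Ptgs2, had no row. Since each row of the table has over 10 reads in at least 4 libraries, a gene with no row cannot be read as 0, and Ptgs2 was not analysed here.

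The list of arachidonate release holds phospholipases, other lipases and regulators such as Anxa1. Of 12 tested, the phospholipase genes Pla2g15 and Pla2g4b rose and Plaat3 and the regulator Anxa1 fell, with a median log2 fold change of -0.35. That median was -0.06 over all genes tested, of which 6.21% were called higher and 4.99% lower. Pla2g15, the lysosomal phospholipase A2 gene, had 35.9, 42.5 and 45.2 RPKM in ASA replicates 1, 2 and 3, and 13.7, 10.3 and 10.6 RPKM in DMSO replicates 1, 2 and 3, with a wide gap between the groups (3.58-fold, limma adjusted p = 0.0119). Pla2g4b, a cytosolic phospholipase A2 gene, averaged 18.7 RPKM with ASA and 5.16 RPKM with DMSO (3.48-fold higher, limma adjusted p = 0.0257). Plaat3, a phospholipase and acyltransferase gene, averaged 7.17 RPKM with ASA and 20.3 RPKM with DMSO (2.73-fold lower, limma adjusted p = 0.0297). Anxa1, which encodes annexin A1, known as an inhibitor of phospholipase A2, had 689, 449 and 447 RPKM in ASA replicates 1, 2 and 3, and 2057, 1114 and 1942 RPKM in DMSO replicates 1, 2 and 3. It was 3.18-fold lower (limma adjusted p = 0.0228) and the most abundant gene of this list. Pla2g4a, the cytosolic phospholipase best known for supplying cyclooxygenases, was rare, at 1.26 RPKM with ASA and 1.91 RPKM with DMSO (limma adjusted p = 0.314). Pla2g5, a secreted phospholipase gene, averaged 5.71 RPKM with ASA and 13.1 RPKM with DMSO (limma adjusted p = 0.167). Pla2g6, the calcium-independent phospholipase, had overlapping groups at 34.3 RPKM with ASA and 33 RPKM with DMSO (limma adjusted p = 0.905), and the phospholipase-activating protein gene Plaa had 57.7 RPKM with ASA and 62.2 RPKM with DMSO (limma adjusted p = 0.676).

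Genes that activate arachidonate and put it back into membranes had 2 of 11 tested members lower and none higher. Their median log2 fold change was -0.43, against -0.06 over all genes tested, of which 4.99% were called lower. Lpcat4, a lysophospholipid acyltransferase gene, had 93.4, 150 and 82.9 RPKM in ASA replicates 1, 2 and 3, and 194, 287 and 286 RPKM in DMSO replicates 1, 2 and 3 (2.39-fold lower, limma adjusted p = 0.0337), with no overlap. Its counts are uncertain, as 21.4% of its exon values did not come out as whole reads. Acsl5, an acyl-CoA synthetase gene, averaged 78.3 RPKM with ASA and 144 RPKM with DMSO (1.85-fold lower, limma adjusted p = 0.0478). Acsl1 just missed the threshold with 111 RPKM with ASA and 187 RPKM with DMSO (limma adjusted p = 0.0502) and passed without ASA replicate 2 (0.0413). Acsl4, the synthetase with a preference for arachidonate, averaged 66.8 RPKM with ASA and 85.3 RPKM with DMSO (limma adjusted p = 0.264). Elovl5 and Fads1, which act in making arachidonate from its precursors, were among the most abundant of this list, and neither passed. Elovl5 averaged 617 RPKM with ASA and 710 RPKM with DMSO (limma adjusted p = 0.695). Fads1 averaged 236 RPKM with ASA and 289 RPKM with DMSO (limma adjusted p = 0.472).

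Of the terminal synthases and their relatives, 2 of 8 tested genes rose, Ptgds and Akr1b8, and none fell. Ptgds was itself chosen for study here, and 6.21% of all genes tested were called higher. No gene of prostaglandin E synthesis passed. Ptges2, a prostaglandin E synthase of membranes, had 54.8, 27.7 and 37.1 RPKM in ASA replicates 1, 2 and 3, and 44.5, 40.7 and 41.3 RPKM in DMSO replicates 1, 2 and 3 (log2 fold change -0.14, limma adjusted p = 0.752, and 0.10 without ASA replicate 2). Ptges3, the cytosolic synthase that is also a cofactor of the chaperone Hsp90, averaged 17.4 RPKM with ASA and 16.9 RPKM with DMSO (limma adjusted p = 0.984), and Ptges3l1 averaged 116 RPKM with ASA and 142 RPKM with DMSO (limma adjusted p = 0.472). For all 3 genes the groups overlapped. Tbxas1, the thromboxane synthase gene, was rare at 1.74 RPKM with ASA and 1.17 RPKM with DMSO (limma adjusted p = 0.653). Cbr3, a carbonyl reductase gene, had 32.5, 5.39 and 22.2 RPKM in ASA replicates 1, 2 and 3, and 48.2, 34.3 and 41.9 RPKM in DMSO replicates 1, 2 and 3, and did not pass (limma adjusted p = 0.171). Its log2 fold change was -1.38, and -0.61 without ASA replicate 2 (limma adjusted p = 0.0951).

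Among the transporters and breakdown enzymes, 2 of 7 tested genes rose and none fell, where 6.21% of all genes tested were called higher. Abcc4, the transporter known for exporting prostaglandins, had 62.5, 33.7 and 46.5 RPKM in ASA replicates 1, 2 and 3, and 11.8, 18.4 and 13.1 RPKM in DMSO replicates 1, 2 and 3. The groups did not overlap and the gene was 3.24-fold higher (log2 fold change 1.70 ± 0.29 SE, limma adjusted p = 0.02). Abcc1, which exports leukotriene C4 and glutathione conjugates, averaged 34.7 RPKM with ASA and 15.7 RPKM with DMSO (2.20-fold higher, limma adjusted p = 0.0217). Slco2a1, the prostaglandin uptake transporter gene, averaged 22.5 RPKM with ASA and 31.6 RPKM with DMSO (limma adjusted p = 0.196), and its relative Slco3a1 averaged 15.7 RPKM with ASA and 26.9 RPKM with DMSO (limma adjusted p = 0.0737). Slco3a1 passed without ASA replicate 2 (limma adjusted p = 0.018). The prostaglandin reductase genes Ptgr1, Ptgr2 and Zadh2 had log2 fold changes of 0.13, -0.28 and 0.42 and none passed (limma adjusted p = 0.81, 0.666 and 0.273). Ptgr2 turned to 0.21 without ASA replicate 2.

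None of the 4 prostanoid receptor genes tested passed. Ptger1, the EP1 receptor of prostaglandin E2, was the most abundant, with 28.7, 1.94 and 7.08 RPKM in ASA replicates 1, 2 and 3, and 33.8, 27.3 and 31.2 RPKM in DMSO replicates 1, 2 and 3. ASA replicate 1 lay among the DMSO libraries and the other ASA libraries lay below them all (log2 fold change -2.03 ± 0.82 SE, limma adjusted p = 0.145). Its log2 fold change without ASA replicate 2 was -1.1 (limma adjusted p = 0.177). Tbxa2r, the thromboxane receptor, averaged 1.76 RPKM with ASA and 0.959 RPKM with DMSO (limma adjusted p = 0.382). Pparg, a nuclear receptor that binds a derivative of prostaglandin D2, averaged 0.964 RPKM with ASA and 0.443 RPKM with DMSO (limma adjusted p = 0.123). Ptgdrl, named for its likeness to the prostaglandin D2 receptor, averaged 1.77 RPKM with ASA and 1.15 RPKM with DMSO (limma adjusted p = 0.558). Ptgir, the prostacyclin receptor, was under the filter, at 0.0352 to 0.279 RPKM in ASA libraries and 0.142 to 0.272 RPKM in DMSO libraries.

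Of 13 tested genes of the other arachidonate routes 3 rose and none fell, against 6.21% of all genes tested called higher. Aloxe3, a lipoxygenase-type enzyme of the epidermis, had 2.34, 7.23 and 4.33 RPKM in ASA replicates 1, 2 and 3, and 0.823, 0.961 and 0.986 RPKM in DMSO replicates 1, 2 and 3 (4.20-fold, limma adjusted p = 0.0328), with no overlap. Ephx2, the soluble epoxide hydrolase gene, averaged 3.16 RPKM with ASA and 1.11 RPKM with DMSO (2.73-fold higher, limma adjusted p = 0.0441). Cyp4f6, a cytochrome P450 gene, averaged 21.6 RPKM with ASA and 8.82 RPKM with DMSO (2.36-fold higher, limma adjusted p = 0.0465), and 13.9% of its exon values were not whole reads. Lta4h, the leukotriene A4 hydrolase gene, was the most abundant at 51.7 RPKM with ASA and 36.0 RPKM with DMSO (limma adjusted p = 0.219). Cysltr1, a receptor of cysteinyl leukotrienes, averaged 1.24 RPKM with ASA and 4.65 RPKM with DMSO (limma adjusted p = 0.0744). Ggt1, which trims glutathione from leukotriene C4, averaged 8.50 RPKM with ASA and 16.0 RPKM with DMSO (limma adjusted p = 0.0664), and passed without ASA replicate 2 (limma adjusted p = 0.0179). Cyp2j10, a cytochrome P450 gene named after its values were seen, had 12.1, 3.37 and 9.33 RPKM in ASA replicates 1, 2 and 3, and 4.25, 4.26 and 4.29 RPKM in DMSO replicates 1, 2 and 3. Its log2 fold change was 0.75 (limma adjusted p = 0.318), and 1.29 without ASA replicate 2 (limma adjusted p = 0.0135). The membrane glutathione transferase gene Mgst1 averaged 28.2 RPKM with ASA and 34.0 RPKM with DMSO (limma adjusted p = 0.389).

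**Figure D4:**
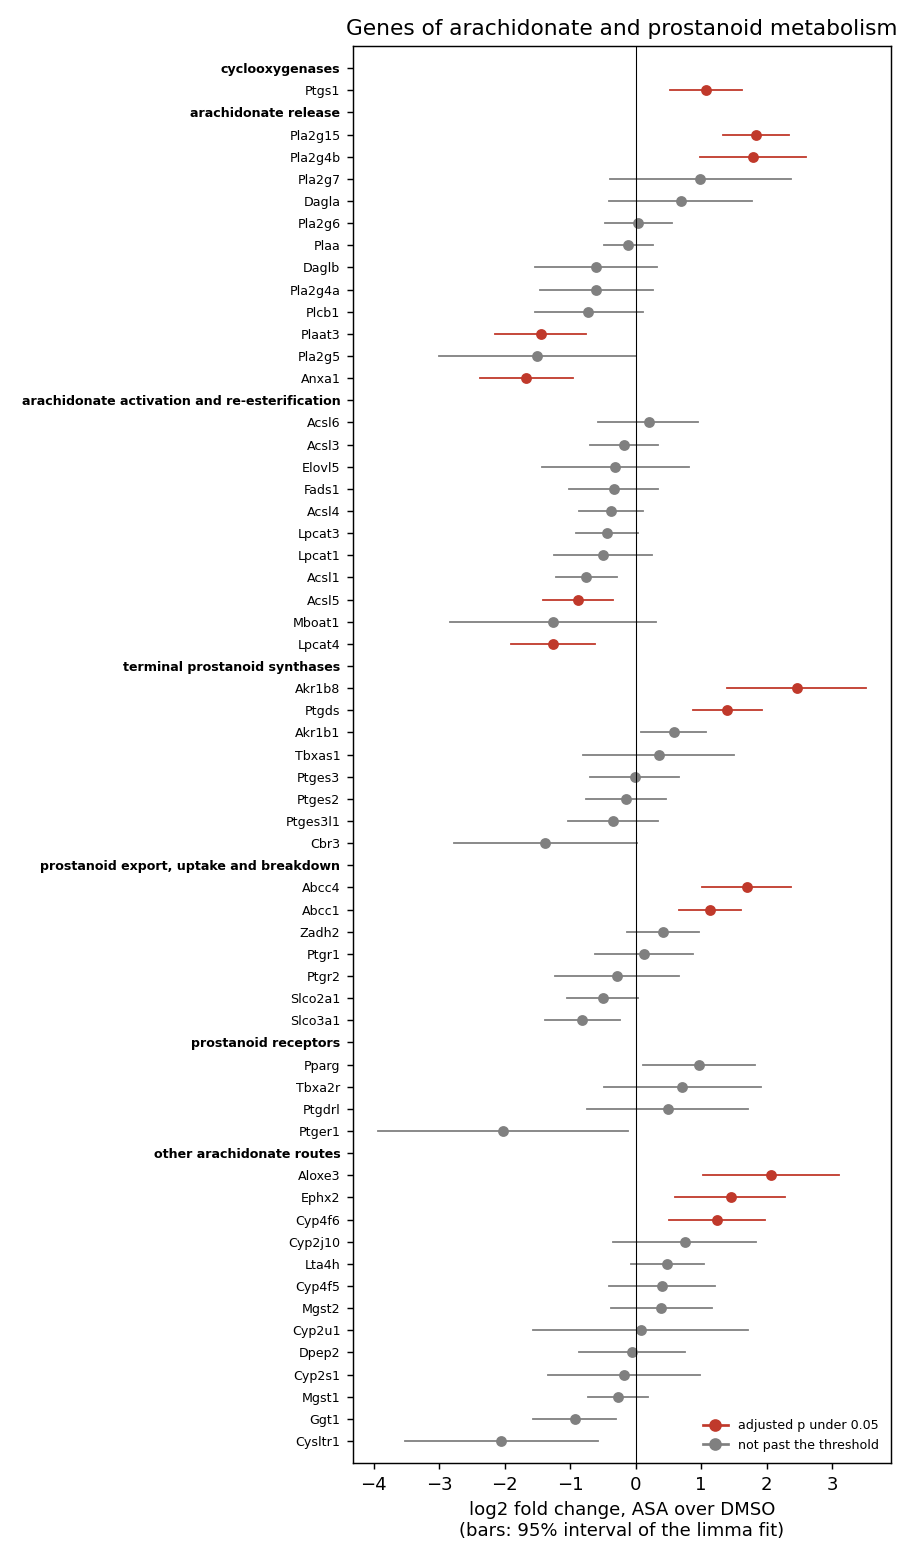
Log2 fold change of ASA over DMSO (horizontal axis) with the 95% interval of the limma fit, for the tested genes of 7 lists of arachidonate and prostanoid metabolism, ordered by role and size. Genes past an adjusted p of 0.05 are in red; Ptgs1 (1.07), Ptgds (1.40) and Abcc4 (1.70) lie right of 0 and Anxa1 (-1.67) lies left of it.

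The levels of some genes ran close to those of the 3 enzymes over the 6 libraries, which share the split into groups. Among 10997 genes compared, those with the highest Pearson correlation of log2 levels with Ptgs1 were Pasd1, Foxred2 and Tmem127 (r = 0.99, 0.988 and 0.986, n = 6), and those with the lowest were Parp9, Slc16a6 and Arl16 (r = -0.993, -0.992 and -0.987). Closest to Ptgds were Tmem62, Spry2 and Tex264 (r = 0.999, 0.996 and 0.994), and Inka1, Cdc27 and Mettl4 ran against it (r = -0.998, -0.997 and -0.995). Tmem62, for instance, had 58.6, 65.8 and 52.2 RPKM in ASA replicates 1, 2 and 3, and 28.5, 26.5 and 24.9 RPKM in DMSO replicates 1, 2 and 3, the order of Ptgds in all 6. Closest to Akr1b1 were Marchf3, Scarb2 and Fpgs (r = 0.996, 0.995 and 0.993), while Dhcr7, Erp44 and Yy1 ran against it (r = -0.999, -0.991 and -0.984). Dhcr7, an enzyme of cholesterol synthesis, had 22.8, 36.8 and 28.4 RPKM in ASA replicates 1, 2 and 3, and 44.2, 53.3 and 47.4 RPKM in DMSO replicates 1, 2 and 3. Of the 3 enzymes among themselves, Ptgs1 and Ptgds had r = 0.95, Ptgs1 and Akr1b1 r = 0.85, and Ptgds and Akr1b1 r = 0.81 (n = 6 each).

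Markers of other cell types known for these enzymes were looked at beside them. Of 7 fibroblast markers only Dcn, Lum and Pdgfrb were in the table, while the collagen genes Col1a1, Col1a2 and Col3a1 and the receptor gene Pdgfra had no row. The summed level of the 3 was 2143 to 3284 RPKM in ASA libraries and 1104 to 1166 RPKM in DMSO libraries. Nearly all of it was Dcn, the matrix proteoglycan decorin, with 2888, 3207 and 2113 RPKM in ASA replicates 1, 2 and 3, and 1070, 1108 and 1067 RPKM in DMSO replicates 1, 2 and 3 (2.49-fold higher, limma adjusted p = 0.0213). Pdgfrb averaged 6.17 RPKM with ASA and 1.55 RPKM with DMSO (limma adjusted p = 0.0372), and Lum averaged 49.0 RPKM with ASA and 54.5 RPKM with DMSO (limma adjusted p = 0.734). Of 7 macrophage markers only Cd14 was in the table, at 3.28 to 19.3 RPKM in ASA libraries and 18.2 to 34.5 RPKM in DMSO libraries (log2 fold change -1.41, and -0.73 without ASA replicate 2). None of 4 endothelial and 8 mast cell and platelet markers had a row. The part of these levels in the rise of Ptgs1 and Ptgds was not tested.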

How the data were processed

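The authors deposited log2 RPKM values, 1 row per exon and 1 column per library, for 6 libraries mapped by the code in the sample titles. Build Rnor_6.0 and, without role or order, the tools edgeR 3.26.8, TopHat2 2.1.0, Bowtie2, cutadapt 1.14 and Trim Galore 0.4.1 are named in the submitters' processing notes. Counting tool, strand use and annotation were not given in the sources used here. Here the log was undone, a constant worth 0.25 read at mean depth removed, and reads recovered, whole within 0.02 read for 95.9% to 97.0% of values. Gene RPKM sums a gene's listed exons. ASA was set against DMSO on log2(RPKM + 0.1) with limma 3.58.1 (R 4.3.3, two-sided, variance trend), for the 12502 genes whose mean RPKM reached 0.5, with Benjamini-Hochberg adjustment over them and a threshold of 0.05. No count model was the main test, since the deposited values are not counts. Exons were tested on the deposited values, and against the rest of their gene with diffSplice. A log fold change understates low genes. Members and lists were chosen with earlier results of these data known. List symbols were matched by symbol, and 3 through RefSeq synonyms. Named genes are the members, called list genes, the list genes with the smallest p or highest level, the closest in pattern and neighbours. Alternatives were other pseudocounts, filters, scalings, weights and gene values, and each library left out. Replicate numbers follow deposition order.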

Additional observations from a re-analysis of the deposited data

How the results depend on the processing

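Under all alternatives run Ptgs1 and Ptgds kept a positive log2 fold change. With single libraries omitted it was 0.92 to 1.26 for Ptgs1, 1.28 to 1.53 for Ptgds and 0.46 to 0.72 for Akr1b1. Akr1b1 passed with library quality weights (0.62) and without both libraries numbered 2 (0.66), and turned to -0.14 with the median exon as gene value; the cause was not tested. The number of genes called was 1400, 5745 with library quality weights, which ran from 0.105 for ASA replicate 2 to 8.71 for DMSO replicate 3, 3153 without both libraries numbered 2, and 0 to 2617 with a library left out. Genes of the 10 lists called numbered 17, 39 with weights, 10 with the median exon, and 0 to 22 with a library left out. Exons of the 3 genes called numbered 3, 1 without the variance trend, 19 with weights, 18 without both libraries numbered 2, and 0 to 19 with a library left out. Those set apart from their gene numbered 1, and 0 to 1 with a library left out. In the limma fits with no called exon 15 to 17 of the 23 had an unadjusted p under 0.05. Leaving out the exon with the most reads was chosen after seeing the data. No paired analysis was possible because the labels give the groups no shared replicate numbers. Depth limits the lowest exons most, with 11 to 16 DMSO reads in exon 6 of Akr1b1.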
